A study of Mus musculus with 8 samples.

Results

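A set of 10 genes of the insulin-like growth factor (IGF) axis was followed across a lymph node stromal cell line: the pappalysins Pappa and Pappa2, the ligands Igf1 and Igf2, and the binding proteins Igfbp2 to Igfbp7. They were taken by symbol from the 55367 genes of the count table, and all 10 were present. Pappa2 was picked because its level rose both after lactic acid (LA) and after tumor-conditioned medium (TCM). Its values in every comparison with LA or TCM are therefore a description with no test, and tests for those comparisons cover the other 9 genes. Of the 10 genes, 8 had at least 10 counts in at least 3 libraries and entered the tests, while Igf2 and Igfbp5 did not.

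The cells were fibroblastic reticular cells (FRCs), the contractile fibroblasts that build the scaffold of the lymph node, as 1 line made from lymph nodes of p53ER/ER C57BL/6 mice. All 4 groups were in RPMI with 2% FBS for 4 days. TCM was RPMI conditioned by B16.F10 mouse melanoma cells, and its control (CCM) was RPMI conditioned by FRCs themselves. LA was given at 15 mmol/L, and its control (vehicle) was RPMI with an equal amount of water. Each group had 2 libraries of poly(A) RNA, 8 in all, and the question put to them was which FRC transcripts respond to the tumor medium and which of those also respond to LA.

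IGF1 and IGF2 signal through the type 1 IGF receptor, but most IGF outside cells is held by binding proteins that keep it from the receptor. PAPP-A and PAPP-A2 are secreted metalloproteinases that cut binding proteins and so release IGF: PAPP-A is best known for cutting IGFBP4, and PAPP-A2 for cutting IGFBP3 and IGFBP5. The stanniocalcins inhibit both enzymes. Only transcripts were measured here, so neither protein level nor cleavage is known.

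Libraries held from 8232889 to 14107964 counts, so that 3 counts, used as the floor, correspond to 0.211 to 0.354 CPM, which are counts scaled to a common library total. CPM are on library sizes scaled by TMM factors throughout. Replicates differed beyond counting noise in every group, most with TCM, where chi-square per degree of freedom was 19.8 against 3.28 to 7.32 in the other groups. The study calls the replicates biological, but the labels do not say whether they were separate cultures, so P values measure the spread between these libraries. With 2 libraries against 2, an exact permutation test cannot go below P = 0.333, and tests therefore come from a model fitted across all 12137 genes that passed the count minimum. The model gives each gene 1 spread shared by all 4 groups, although the groups differed in spread. Below, a call means that the adjusted P fell under 0.05 while the log2 fold change (FC) went beyond 0.39. Of 9 FRC and fibroblast markers, Col1a1, Pdgfrb, Pdgfra, Pdpn and Vcam1 were present in every library, Thy1 had 1 to 16 counts, Il7 averaged 0.741 to 1.62 CPM, and the FRC chemokines Ccl19 and Ccl21a had at most 1 count and 0 counts. These markers did not move together: with TCM Pdpn averaged 186 CPM and Vcam1 206, against 137 and 178 with CCM, while Pdgfrb averaged 292 against 406. All 5 hematopoietic markers were at 0 in every library. The 6 melanoma markers summed to 0.954 to 1.89 CPM, with Tyr at 0, and the 5 endothelial markers to 1.01 to 2.18 CPM, with Prox1 at 0. Most of the melanoma sum was Pmel, which averaged 1.07 CPM with TCM and 1.36 to 1.63 CPM in the other groups. Tyrp1 had 6 and 3 counts and Dct 1 and 1 in the TCM libraries, and both had 0 in every other library. Sox10 had 1 count, in TCM 2, and Mlana at most 1 count, in LA 2 and TCM 1. The 4 epithelial markers summed to 4.46 to 4.53 CPM with vehicle, 2.19 to 3.15 with CCM, 1.77 to 2.18 with LA and 0.632 to 0.872 with TCM, but this sum was nearly all Cdh1, since Epcam was at 0 and Krt8 and Krt18 had at most 1 count. The part of these marker differences in the results was not tested.

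After TCM, Pappa, Igfbp2 and Igfbp7 transcripts rose and Igfbp4 fell, and after LA Igfbp3 fell. The TCM and LA effects differed, by a test of the difference itself, for Igfbp2, Igfbp3 and Igfbp7. Pappa2, by its choice, rose with both, to 10.6 times the CCM level after TCM and 5.97 times the vehicle level after LA. Igf1 was present in all groups and Igf2 had no count in any library.

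**Figure D1:**
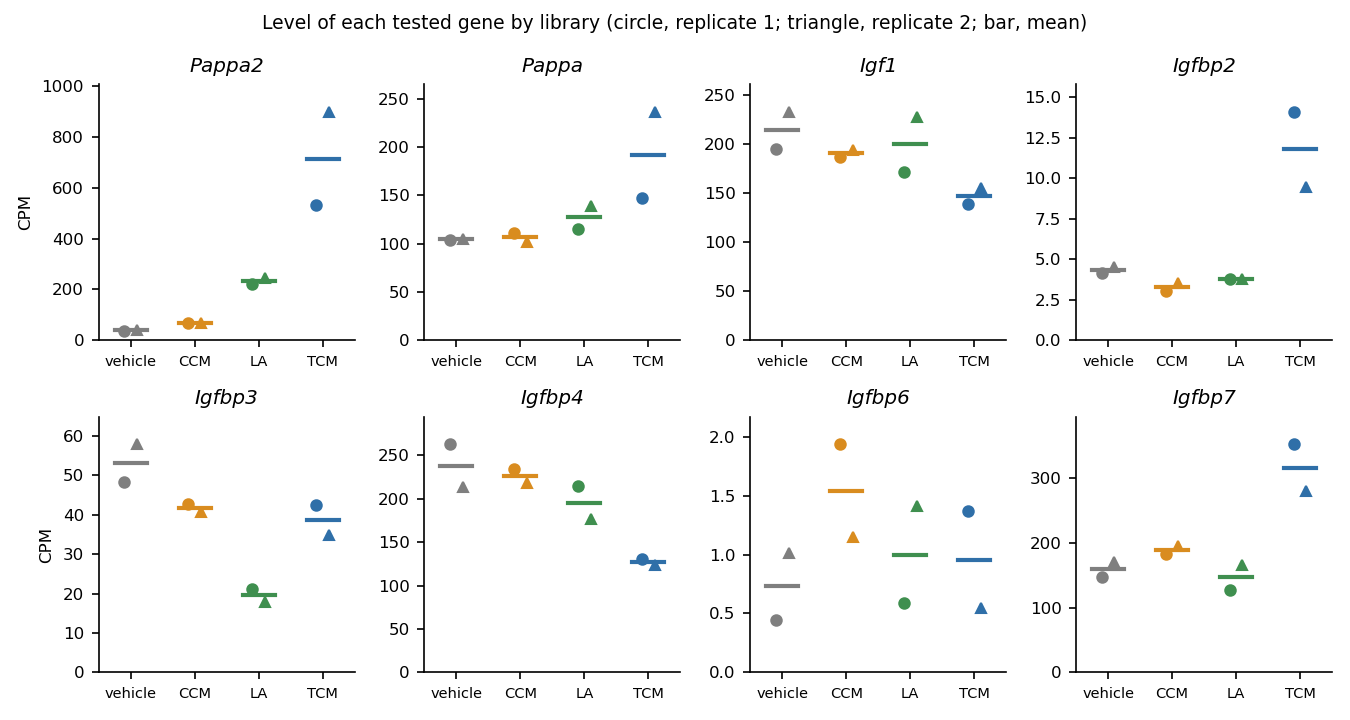
CPM of the 8 tested genes (y axis, starting at 0) in vehicle, CCM, LA and TCM (x axis), with a circle for replicate 1, a triangle for replicate 2 and a bar for the mean. Pappa2 climbs from vehicle to TCM, Igfbp3 is lowest with LA, at 18.0 and 21.1 CPM, and Igfbp4 is lowest with TCM, at 124 and 131 CPM.

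Pappa2 lies on the minus strand of chromosome 1 (GRCm38, chr1:158711727-158980490). The uncharacterized gene 1600012P17Rik overlaps its exons on the same strand and had at most 3 counts in a library. Pappa2 stood at 36.9 and 40.8 CPM with vehicle and at 69.1 and 65.7 CPM with CCM. It stood at 219 and 246 CPM with LA and at 532 and 899 CPM with TCM. No 2 groups overlapped, and the order was vehicle, CCM, LA, TCM. The log2 FC was 3.41 for TCM against CCM, 2.58 for LA against vehicle, 4.20 for TCM against vehicle, 1.79 for LA against CCM and 1.62 for TCM against LA. Among the 12137 genes, only Kcnab1 had a higher log2 FC for TCM against CCM, and only Ifi44, Oas1a and Wfdc18 had higher ones for LA against vehicle. The TCM replicates differed by a factor of 1.69, a larger ratio than in 94.5% of the tested genes. Without TCM 1 or TCM 2 the log2 FC for TCM against CCM ranged from 2.98 to 3.74, and its TCM effect less its LA effect, 0.83 with all libraries, from 0.40 to 1.16.

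Pappa2 was not picked by the comparison between the controls, which was tested. That test still uses the vehicle and CCM levels from which its rises were measured. It is therefore not independent of the choice. CCM libraries lay above vehicle libraries, with means of 67.4 ± 2.45 and 38.9 ± 2.76 CPM (SD, n = 2 each) and a log2 FC of 0.79 (SE 0.207, 95% interval 0.34 to 1.25). At an adjusted P of 0.0938 (edgeR) it was not called. It was called in 7 of 16 alternative fits, in which the adjusted P ranged from 1.94e-06 to 0.477, among them the DESeq2 test at 0.00728 and the fits without TCM 1 (0.000525) or TCM 2 (0.000501). None of the other 7 tested members was called between CCM and vehicle either, against 1.3% of all tested genes. Pappa2 and Igfbp3 had unadjusted P values under 0.05 (2 of 8, against 12.9% of all tested genes).

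The 250 bases before a RefSeq start are shown for Pappa2, on which the description turns, and for the members called with the smallest adjusted P values, which were Igfbp2 and Igfbp4 with TCM and Igfbp3 with LA (GRCm38.p6, 5′ to 3′ on the strand of the gene). Capitals mark matches, on either strand, to TGANTCA (AP-1), ACGTG (hypoxia response core), GTAAACA (forkhead), GAAANNGAAA (interferon element), GGAATG (TEAD), GGGCGG (GC box), CCAAT and TATAAA. Among 32841 RefSeq promoter windows of this length, 6.75% held AP-1, 16.6% the hypoxia core, 3.17% the forkhead motif, 2.98% the interferon element, 12.6% the TEAD motif, 32.7% a GC box, 33.9% CCAAT and 12.4% TATAAA. The window of Pappa2, at chr1:158958176-158958425, lies inside the gene span of the other annotation used for positions. That of Igfbp2 is at chr1:72824230-72824479, that of Igfbp3 at chr11:7213924-7214173 and that of Igfbp4 at chr11:99040994-99041243.
Pappa2: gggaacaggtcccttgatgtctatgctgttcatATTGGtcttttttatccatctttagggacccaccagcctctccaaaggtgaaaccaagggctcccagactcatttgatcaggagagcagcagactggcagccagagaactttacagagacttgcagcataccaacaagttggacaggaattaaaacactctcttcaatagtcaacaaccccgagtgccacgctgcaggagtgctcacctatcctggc
Igfbp2: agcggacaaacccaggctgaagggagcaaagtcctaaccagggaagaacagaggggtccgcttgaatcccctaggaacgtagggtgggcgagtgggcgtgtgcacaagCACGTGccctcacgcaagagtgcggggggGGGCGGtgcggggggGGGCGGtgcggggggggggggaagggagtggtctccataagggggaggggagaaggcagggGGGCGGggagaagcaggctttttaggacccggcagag
Igfbp3: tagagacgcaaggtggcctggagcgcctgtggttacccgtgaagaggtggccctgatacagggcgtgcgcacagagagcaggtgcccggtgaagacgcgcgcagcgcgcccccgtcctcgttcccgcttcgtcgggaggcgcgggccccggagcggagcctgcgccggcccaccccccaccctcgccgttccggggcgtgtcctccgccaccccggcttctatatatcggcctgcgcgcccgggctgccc
Igfbp4: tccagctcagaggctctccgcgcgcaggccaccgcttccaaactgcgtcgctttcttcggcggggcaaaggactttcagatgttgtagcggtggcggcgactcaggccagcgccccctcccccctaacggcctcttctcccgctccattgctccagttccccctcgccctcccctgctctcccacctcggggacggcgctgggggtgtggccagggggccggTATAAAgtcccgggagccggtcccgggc
Pappa2 held 1 CCAAT match, 217 bases before the start. Igfbp2 held 3 GC boxes and the palindrome that reads as the hypoxia core on either strand. RefSeq gives it a second start, whose window (chr1:72825137-72825386, not shown) held 1 AP-1 match, 39 bases before the start, and none of the other 7 motifs. Igfbp4 held TATAAA 28 bases before its start, and Igfbp3 held none of the 8 motifs. These letters describe the windows and say nothing of which factors bind there.

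Pappa, the other pappalysin, lies on the plus strand of chromosome 4 (chr4:65124174-65357509). The vehicle libraries held 104 and 105 CPM and the CCM libraries 111 and 102, against 115 and 139 in the LA libraries and 147 and 237 in the TCM libraries. TCM libraries were above all others, and TCM 2 was 1.61 times TCM 1, a larger ratio than in 92.6% of tested genes. The level was 1.80 times that of CCM after TCM (log2 FC 0.85, SE 0.182, adjusted P = 0.00734). The call did not hold without CCM 2 (log2 FC 0.78, adjusted P = 0.0609, against 1.53e-11 to 0.0609 over all alternatives). Without TCM 2 the log2 FC was 0.46, and without TCM 1 it was 1.15. After LA it was 0.29 (SE 0.183, adjusted P = 0.555), not called, and the difference between the effects was 0.56 (SE 0.257, adjusted P = 0.211), which was called without TCM 1 (0.86, adjusted P = 0.00102) and with no filter on low counts (adjusted P = 0.0110).

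The balance between the pappalysins was compared per transcript length, as reads per kilobase of transcript, as a rate per library total (RPKM). Pappa2 over Pappa was 0.411 and 0.450 with vehicle and 0.718 and 0.749 with CCM. It was 2.21 and 2.04 with LA and 4.19 and 4.40 with TCM. Pappa was thus the more abundant transcript in the 4 control libraries and Pappa2 in the 4 treated ones. The TCM replicates, which differed in each gene, lay close in this ratio. Since Pappa2 was chosen for its rise, the ratio is a description.

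Igf1, the ligand present, lies at chr10:87858265-87937042 on the plus strand. The vehicle libraries held 195 and 233 CPM and the CCM libraries 187 and 194, against 172 and 228 in the LA libraries and 139 and 156 in the TCM libraries. The TCM libraries were the lowest of the 8, and the other groups overlapped except CCM and vehicle. Igf1 was lower with TCM than with vehicle (log2 FC -0.54, SE 0.139, adjusted P = 0.0188), while against CCM the log2 FC was -0.37 (SE 0.139, adjusted P = 0.0805) and was not called. On library totals with no TMM factors the latter was called (-0.51, adjusted P = 0.0156). That scaling shifted the median log2 FC of all genes for TCM against CCM from 0.00032 to -0.14. The change with LA was -0.10 (SE 0.137, adjusted P = 0.839). The antisense gene Igf1os overlaps Igf1 and had at most 6 counts. Igf2, at chr7:142650766-142666816, had 0 counts in all 8 libraries, which allows at most 0.211 to 0.354 CPM by counting error.

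Igfbp2, a binding protein with affinity for both ligands, lies at chr1:72824503-72852474 on the plus strand, beside Igfbp5. The vehicle libraries held 4.13 and 4.53 CPM and the CCM libraries 3.03 and 3.53, against 3.78 and 3.80 in the LA libraries and 14.1 and 9.48 in the TCM libraries. The groups did not overlap, and the TCM libraries stood highest, while no difference among the other groups was called. Their level was 3.601 times that with CCM (log2 FC 1.85, SE 0.234, adjusted P = 0.000280). With LA the log2 FC was -0.19 (SE 0.260, adjusted P = 0.833), and the effects differed by 2.04 (SE 0.352, adjusted P = 0.00362). The TCM call held in all 16 alternative fits, with log2 FCs of 1.53 to 2.10.

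Igfbp3, the main carrier of IGF in serum and a known substrate of PAPP-A2, lies at chr11:7206086-7213923 on the minus strand. The vehicle libraries held 48.3 and 57.9 CPM and the CCM libraries 42.8 and 40.7, against 21.1 and 18.0 in the LA libraries and 42.5 and 34.9 in the TCM libraries. The LA libraries were the lowest of all, and CCM and TCM overlapped. LA lowered it to 0.365 times the vehicle level (log2 FC -1.46, SE 0.143, adjusted P = 0.000532), a call that held in all 16 alternative fits. It was also lower with LA than with CCM (log2 FC -1.11, SE 0.143, adjusted P = 0.00820). For TCM against CCM the log2 FC was -0.11 (SE 0.137, 95% interval -0.41 to 0.19, adjusted P = 0.620) and turned to 0.03 without TCM 2. Against vehicle, however, Igfbp3 was called lower with TCM (log2 FC -0.46, SE 0.136, edgeR adjusted P = 0.0366). CCM itself lay below vehicle by a log2 FC of -0.35 (SE 0.134, edgeR adjusted P = 0.277), not called. The effects of TCM and LA differed by 1.35 (SE 0.198, adjusted P = 0.00132). Igfbp1, next to it on chromosome 11, had no count in any library.

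Igfbp4, the best known substrate of PAPP-A, lies at chr11:99041244-99054392 on the plus strand. The vehicle libraries held 263 and 213 CPM and the CCM libraries 234 and 218, against 214 and 176 in the LA libraries and 131 and 124 in the TCM libraries. TCM libraries were the lowest, and vehicle, CCM and LA formed a near continuous range. TCM lowered it to 0.564 times the CCM level (log2 FC -0.83, SE 0.126, adjusted P = 0.000945), which held in all 16 alternative fits. With LA the log2 FC was -0.29 (SE 0.124, adjusted P = 0.320). The difference between the effects, -0.54 (SE 0.177, adjusted P = 0.0810), was not called, but was with no TMM factors, with no filter on low counts, and with the replicate number as a block, as numbered or with the CCM numbers crossed (adjusted P of 0.0328, 0.0132, 0.0315 and 0.0211, against 0.0132 to 0.290 over all alternatives).

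Igfbp7, a low-affinity relative secreted into the matrix, lies at chr5:77349240-77408041 on the minus strand. The vehicle libraries held 148 and 171 CPM and the CCM libraries 182 and 195, against 128 and 166 in the LA libraries and 353 and 281 in the TCM libraries. The TCM libraries were the highest, and vehicle and LA overlapped. TCM raised it to 1.68 times the CCM level (log2 FC 0.75, SE 0.144, adjusted P = 0.00412), which held in all 16 alternative fits. With LA the log2 FC was -0.11 (SE 0.146, adjusted P = 0.822), and the effects differed by 0.86 (SE 0.205, adjusted P = 0.0213). That difference was not called without vehicle 2, CCM 1, CCM 2 or LA 1, where it was 0.69 to 0.91 with adjusted P of 0.0577 to 0.0950. Polr2b, a subunit of RNA polymerase II, overlaps exons of Igfbp7 on the opposite strand, and whether counting used strand is not given in the sources used here. Its own log2 FC for TCM against CCM was 0.08 (SE 0.0931, adjusted P = 0.593).

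Igfbp5 and Igfbp6 were at or near the floor. Igfbp6, a binding protein that prefers IGF2 (chr15:102144362-102149511), had 4 and 11 counts in the vehicle libraries, 23 and 12 in those of CCM, 5 and 20 in those of LA, and 13 and 5 in those of TCM. The groups overlapped except CCM and vehicle, and no comparison was called. Its standard error for TCM against CCM was 0.548, the widest of the members, so a change of the size seen in Igfbp4 was not detectable at this depth. Igfbp5, another known PAPP-A2 substrate (chr1:72857932-72874884), had 6 counts in CCM 1 and 0 or 1 count in each of the other 7 libraries. No fold is given for it.

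Over the members other than Pappa2, 4 of 7 tested were called for TCM against CCM (3 higher, 1 lower), against 19.1% of all tested genes, of which 8.83% were higher and 10.2% lower. The median log2 FC of these 7 was -0.11, and that of all genes 0.00032. For LA against vehicle 1 of 7 was called, lower, against 2.55% of all genes, and 1.24% in that direction. The median of the 7 was -0.11 there, and that of all genes -0.00035. The TCM effect differed from the LA effect in 3 of 7, all with the higher log2 FC for TCM, against 10.4% of all genes and 4.45% in that direction. Igfbp3 was among these 3, with a log2 FC of -0.11 for TCM and -1.46 for LA. For TCM against vehicle 6 of 7 were called (background 17.5%), for TCM against LA 6 of 7 (16.1%), and for LA against CCM 1 of 7 (0.626%). These last comparisons share libraries with the first and are not separate evidence. The members were chosen with earlier results of these data known, so the shares called describe this list only. In the order of levels, TCM stood apart from its nearest neighbor for Pappa, Igfbp2, Igfbp4 and Igfbp7, and LA for Igfbp3, in each case with a call against that neighbor. For Igf1 the TCM libraries lay below their nearest neighbor, CCM, without overlap, but that difference was not called, and for Igfbp6 neighboring groups overlapped.

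**Figure D2:**
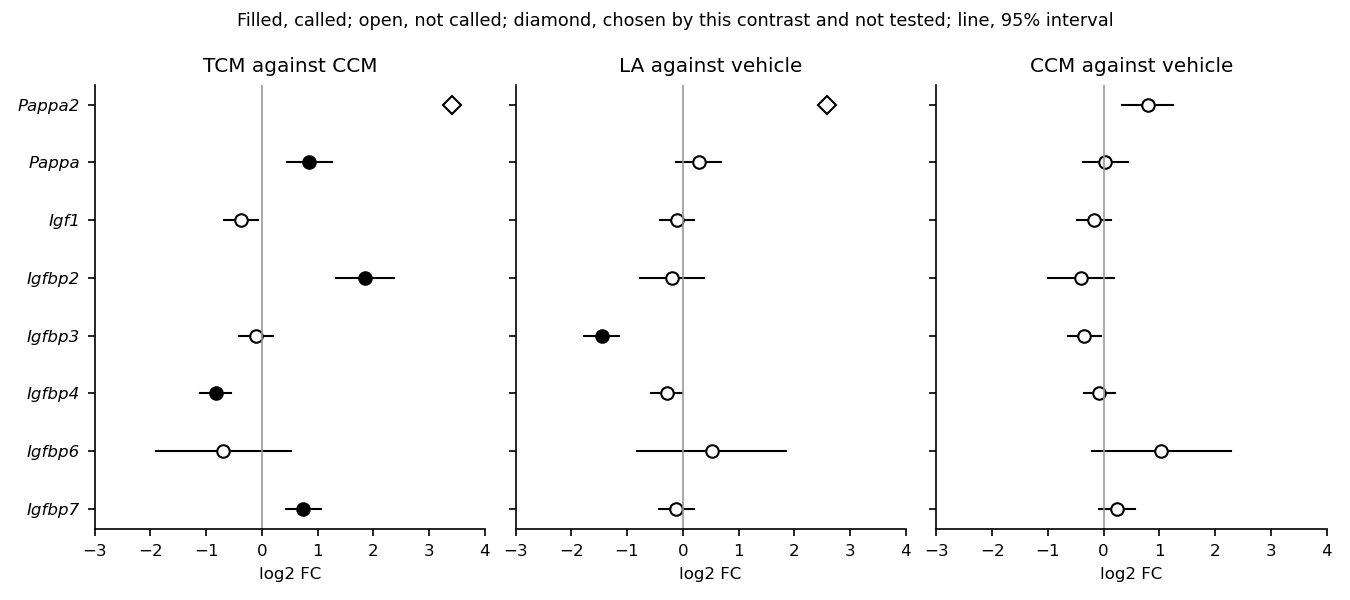
Log2 FC (x axis) of the 8 tested genes for TCM against CCM, LA against vehicle and CCM against vehicle, with lines for 95% intervals, filled circles for called genes, open circles for the others and diamonds for Pappa2 where it was chosen by the comparison. Pappa, Igfbp2, Igfbp4 and Igfbp7 are filled under TCM, Igfbp3 under LA, and none between the controls.

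Per transcript length, Igfbp7 and Igfbp4 made up most of the binding protein transcripts. The summed RPKM of Igfbp2 to Igfbp7 was 221 ± 8.12 with vehicle, 237 ± 3.79 with CCM, 185 ± 15.0 with LA and 323 ± 49.1 with TCM (SD, n = 2 each). Of this sum Igfbp7 held 57.2% and 63.0% in the vehicle libraries, 64.7% and 67.8% in those of CCM, 61.1% and 70.6% in those of LA, and 82.2% and 81.1% in those of TCM. Igfbp4 held 31.9% and 24.5%, 26.0% and 23.7%, and 32.0% and 23.4% in the same order up to LA, and only 9.53% and 11.2% with TCM. TCM libraries thus lay outside the range of the other 6 for both genes. Igfbp3 held 9.27% and 10.6% of the sum with vehicle and 4.997% and 3.78% with LA, but also 4.91% and 4.998% with TCM, where its own RPKM, 15.99 ± 2.23, was near that of CCM, 17.2 ± 0.618. Igfbp2 was at most 3.02% in every library. These shares are of transcripts in a bulk sample, in which fewer cells making a transcript and less of it per cell cannot be told apart.

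**Figure D3:**
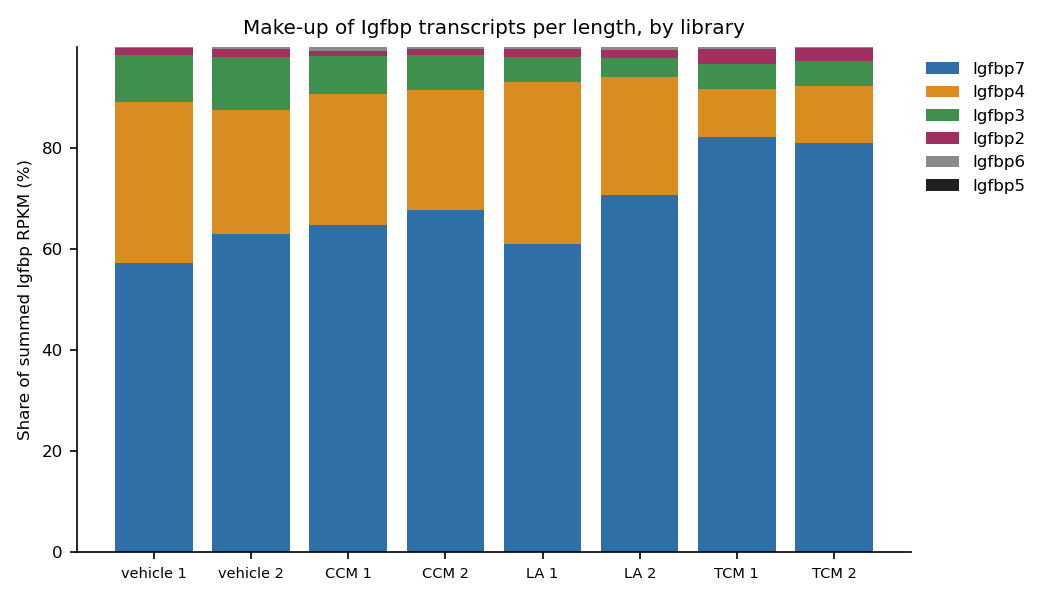
Share in percent (y axis) of the summed RPKM of Igfbp2 to Igfbp7 held by each gene in each of the 8 libraries (x axis). Igfbp7 takes 81.1% and 82.2% with TCM and 57.2% to 70.6% elsewhere.

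The rest of the pathway was described from a list of 51 genes in 8 arms, of which 44 were tested. The list was chosen with earlier results of these data known, so the shares called describe it only. For TCM against CCM 12 of 44 were called, 9 higher and 3 lower (27.3%, against 19.1% of all genes), with a median log2 FC of 0.05. Fewer were called without CCM 1 or without CCM 2, fits in which the calls over all genes fell as well. For LA against vehicle 0 of 44 were called with edgeR and 0 with DESeq2, against 2.55% of all genes with edgeR, while 9 had an unadjusted P under 0.05, against 14.3% of all genes. The count was 3 (Adam12, Irs2 and Kazald1) with no filter on low counts, and 2 (Irs2 and Kazald1) without TCM 1 and also without TCM 2, fits in which the calls over all genes rose from 310 to 656, 617 and 617. The median there was -0.01. Between the TCM and LA effects 7 of 44 were called, 5 higher and 2 lower (15.9%, against 10.4%).

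Among the inhibitors of pappalysins, Stc1 was lower with TCM. It had 98 and 89 counts in the vehicle libraries, 101 and 74 in those of CCM, 59 and 71 in those of LA, and 15 and 7 in those of TCM. No TCM library reached the level of any other, and the log2 FC against CCM was -2.72 (SE 0.342, adjusted P = 0.000270). With LA it was -0.70 (SE 0.248, adjusted P = 0.204), and the effects differed by -2.01 (SE 0.439, adjusted P = 0.0139), a call lost without CCM 1 (-1.87, adjusted P = 0.0558). Stc2 ran from 2.94 to 5.43 CPM, with a log2 FC of -0.37 (SE 0.302, adjusted P = 0.430) for TCM and -0.10 (SE 0.282, adjusted P = 0.933) for LA. Prg2, whose product is the proform of eosinophil major basic protein and binds PAPP-A, had 0 counts throughout.

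Of the receptors, Igf1r, which carries the IGF signal, stood at 135 and 133 CPM in the CCM libraries and at 182 and 218 in the TCM libraries, a log2 FC of 0.57 (SE 0.102, adjusted P = 0.00245). In the vehicle libraries it was 151 and 157 CPM and in the LA libraries 146 and 145, a log2 FC of -0.08 (SE 0.102, adjusted P = 0.819). The effects differed by 0.66 (SE 0.144, adjusted P = 0.0144), which was lost without vehicle 1, vehicle 2, CCM 1, CCM 2 or LA 2 (adjusted P of 0.0514 to 0.0744). The insulin receptor Insr went from 48.6 and 44.3 CPM in the CCM libraries to 57.8 and 81.2 in the TCM libraries, a log2 FC of 0.58 (SE 0.1496, adjusted P = 0.0183), a call lost in 4 of 16 alternative fits, among them those without CCM 1, CCM 2 or TCM 2 (adjusted P of 0.0680, 0.128 and 0.0530). Igf2r, which clears IGF2 and has the antisense gene Airn over it, had a log2 FC of -0.10 for TCM (SE 0.124, adjusted P = 0.608) that turned to 0.07 without TCM 1, and of 0.05 for LA (SE 0.124, adjusted P = 0.926).

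The serine proteases Htra1, which can cut binding proteins, and Prss23 were higher with TCM. Htra1 stood at 121 and 124 CPM in the CCM libraries and 310 and 290 in the TCM libraries, a log2 FC of 1.30 (SE 0.0943, adjusted P = 1.74e-05). Prss23 stood at 395 and 399 CPM in the CCM libraries and 1044 and 1003 in the TCM libraries, a log2 FC of 1.37 (SE 0.107, adjusted P = 2.08e-05). Adam12, a metalloproteinase that cuts IGFBP3 and IGFBP5, was lower, with 72.6 and 57.8 CPM in the CCM libraries and 17.6 and 23.8 in the TCM libraries, a log2 FC of -1.66 (SE 0.240, adjusted P = 0.000684), a call lost without TCM 1 (-1.46, adjusted P = 0.0781). The TCM and CCM libraries did not overlap in any of these. With LA the log2 FC was -0.21 for Htra1, -0.15 for Prss23 and -0.52 for Adam12, none called.

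Of the adaptors, Grb14, a brake on the insulin receptor, rose with TCM by a log2 FC of 1.27 and Irs2, a docking protein of both receptors, by 1.05. Grb10 and Irs1 rose by 0.59 and 0.48. The catalytic subunit gene Pik3cb was higher by 0.50, and Jak2, a kinase of the growth hormone receptor, was lower by a log2 FC of -0.40. These Pik3cb and Jak2 calls were against CCM alone: against vehicle the TCM log2 FC was -0.04 and -0.17, with overlapping libraries, while CCM differed from vehicle by -0.54 and 0.23, neither called. Igf1r was at 0.38 against vehicle, short of the fold threshold, and the other 9 of the 12 genes were called against vehicle as well, a comparison that shares the TCM libraries. Grb14 and Irs2 were called in all 16 alternative fits, whereas Grb10, Irs1, Pik3cb and Jak2 lost the call in 3 to 8 of them, each without CCM 1 and without CCM 2. Besides Stc1 and Igf1r, TCM and LA effects differed for Htra1 (1.51), Prss23 (1.52), Grb14 (1.28), Pik3cb (0.83) and Kazald1 (-0.95), an IGFBP-related secreted protein. The difference was lost without vehicle 1, CCM 1, CCM 2 or LA 2 for Pik3cb (0.77 to 0.87) and also without LA 1 for Kazald1 (-0.97 to -0.73). TCM against LA directly was called for Htra1, Prss23 and Grb14, but not for Pik3cb (log2 FC 0.29) or Kazald1 (-0.44). Kazald1 averaged 12.5 CPM with vehicle, 18.0 with CCM, 18.5 with LA and 13.7 with TCM. Its log2 FC was 0.51 for CCM against vehicle and 0.12 for TCM against vehicle, neither called. Of the 20 genes from PI3K to FOXO, 1 (Pik3cb) was called with TCM, against 19.1% of all genes, and 5 had an unadjusted P under 0.05, against 34.3%.

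**Figure D4:**
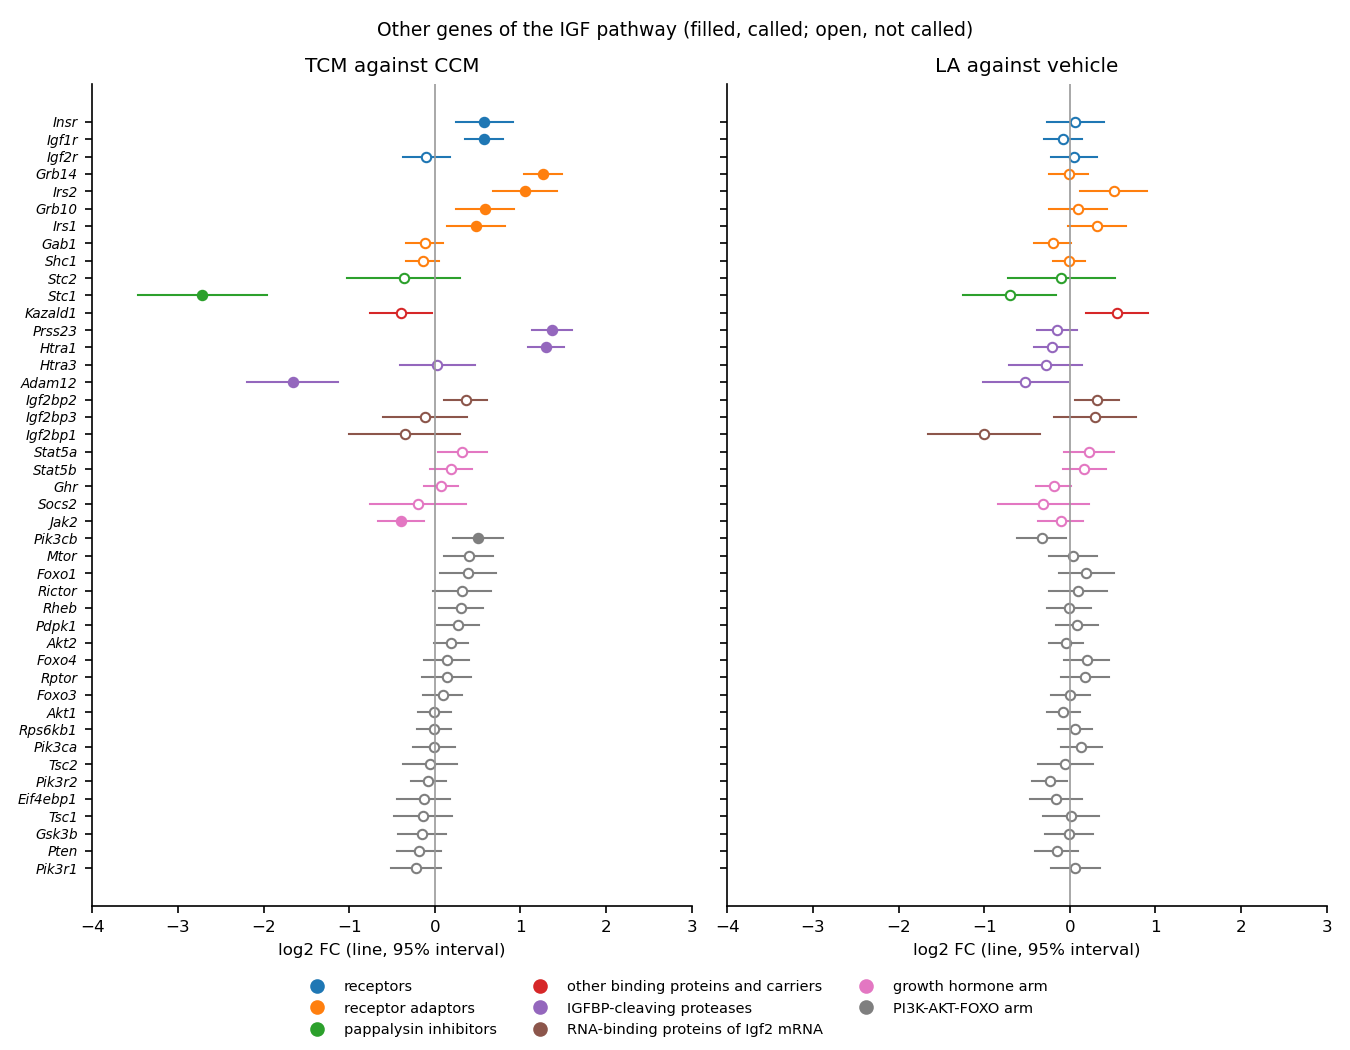
Log2 FC (x axis) with 95% intervals of the 44 tested pathway genes, grouped by arm in color, for TCM against CCM (left) and LA against vehicle (right). Filled circles are called: 12 at left, from Stc1 at -2.72 to Prss23 at 1.37, and 0 at right.

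The genes whose pattern over the 8 libraries was most like that of Pappa2 were sought among all 12137. By Pearson's r of log2 CPM they were Parp9 (r = 0.989), Cnpy3 (0.985), Dock11 (0.983), Parvb (0.983) and Epha1 (0.983). The 8 points fall into 4 conditions, and the points of a library share its depth, so r is a description. With Spearman's rho, 1 of these 5 (Dock11) was still among the 5 most like it. Their range was narrower than that of Pappa2: Cnpy3 ran from 36.7 to 48.4 CPM and Epha1 from 1.20 to 5.34 CPM. By the distance between centered log2 CPM profiles, which also takes the size of the change into account, they were Bst2 (root mean square distance 0.402), Ifi44 (0.412), Isg15 (0.492), Rtp4 (0.517) and Ifi27l2a (0.565). Bst2 held 9.93 and 9.05 CPM in the vehicle libraries, 18.4 and 11.5 in those of CCM, 27.1 and 33.7 in those of LA, and 85.3 and 141 in those of TCM. No other member of the axis was among these genes.

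**Figure D5:**
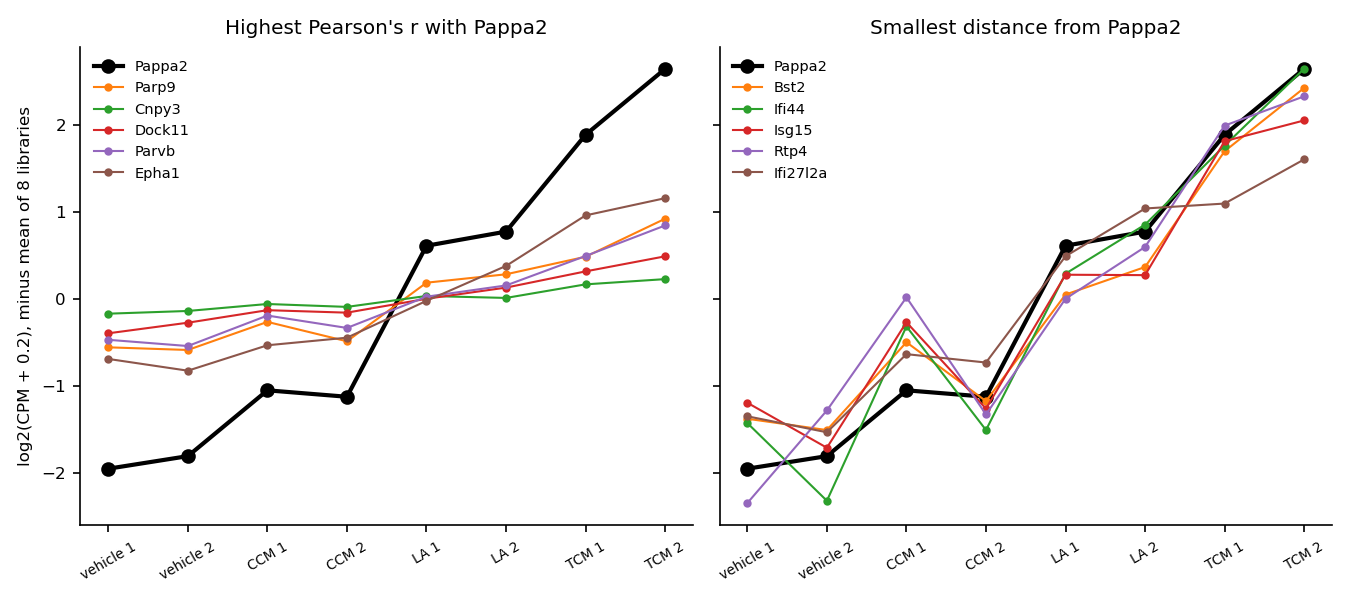
Log2 of CPM plus a small constant, minus its mean over the 8 libraries (y axis), for Pappa2 (black), by library (x axis). It is shown with the 5 genes of highest Pearson's r (left) and the 5 at the smallest distance (right). Lines only join the points of 1 gene. The genes at left follow the same order of group means with smaller steps, such as Cnpy3 from 36.7 to 48.4 CPM. Those at right span wider ranges, such as Ifi27l2a from 1.94 to 18.6 CPM, against 36.9 to 899 for Pappa2.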

How the data were processed

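Poly(A) RNA of an FRC line was sequenced by the authors from directional libraries, aligned to GRCm38 (Ensembl) with STAR 2.7.0a and counted per gene with featureCounts (Subread 2.0.1), per the submitters' processing notes and the study's methods. The deposited values are whole-number counts per gene with no normalization. A second deposited table, normalized by its name, was checked and holds the same counts for 12137 genes (100% of values equal). The strand setting of counting is not given in the sources used here. No column was left unused (0).

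Members and pathway lists were chosen with earlier results of these data known. The 12137 genes with 3 or more libraries at 10 or more counts were scaled by TMM (factors 0.938 to 1.04) and fitted with edgeR 4.0.16 in R 4.3.3 (glmQLFit and glmQLFTest, robust), with 1 mean per group and all 8 libraries. The Benjamini-Hochberg adjustment ran over all tested genes, and SE is the log2 FC divided by the square root of F. The scripts' test was checked on simulated counts. RPKM used the longest transcript of GENCODE M21 on GRCm38, which also gave positions and is not the annotation used for counting. Promoter windows are from RefSeq on GRCm38.p6, with 9 of 10 members matched. Log2 CPM for likeness used a prior count of 2. Floors cover counting error only, since no molecular identifiers were used.

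All 10 members were described. Pathway genes were named if called for TCM or LA, and receptors and pappalysin inhibitors always. The 5 genes most like Pappa2 were taken by each measure, and genes overlapping a called member were given. Kazald1, called only between effects, was named after its values were seen. Of the pathway, 1 gene is not reported here. Alternatives were other scalings, DESeq2 1.42.0, other filters and fold thresholds, only the libraries compared, the replicate number as a block, and leaving out each library in turn. The sources used here name no pairing of replicate numbers, so the fit carries no block.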

Additional observations from a re-analysis of the deposited data

How the results depend on the processing

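Across 16 alternatives, 771 log2 FC values of members and named pathway genes kept direction and side of the threshold, 49 lost a call, 14 gained one and 8 changed sign. Pappa2 carries no test in comparisons with LA or TCM, so there it counted as kept if it moved by less than the replicate spread. Between CCM and vehicle 0 members were called, and 1 (Pappa2) with the DESeq2 test, with no filter on low counts and with only the libraries compared. Leaving out each library in turn gave 0 to 1 member there, 1 for LA against vehicle, 3 to 4 for TCM against CCM and 2 to 4 for the difference between effects. That difference had 5 members with no filter on low counts, and TCM against CCM had 1 (Igfbp2) at a log2 FC beyond 1. None of the sign changes was in a called value, and all came from leaving out 1 library. For LA against vehicle the log2 FC ranged from -0.32 (without LA 2) to 0.089 (without LA 1) for Igf1, which was 0.03 without vehicle 2, from -0.32 (without LA 2) to 0.058 (without LA 1) for Igfbp7, and from -0.35 (without LA 2) to 1.26 (without vehicle 2) for Igfbp6. For CCM against vehicle it ranged from -0.23 (without vehicle 2) to 0.083 (without vehicle 1) for Igfbp4 and from -0.042 (without CCM 1) to 0.093 (without CCM 2) for Pappa. For TCM against CCM it ranged from -0.26 (without TCM 1) to 0.026 (without TCM 2) for Igfbp3 and from -0.30 (without TCM 2) to 0.072 (without TCM 1) for Igf2r. The cause of these changes was not tested. Counts over all genes moved more: TCM against CCM had 2314 calls and 760 to 2864 in the alternatives, LA against vehicle 310 and 57 to 656, CCM against vehicle 158 and 0 to 679, and the difference between effects 1268 and 629 to 2540. With no TMM factors 24.2% of TCM calls were higher, against 46.3%. With 2 libraries a group, leaving out a library leaves a lone sample that is assumed to vary like the other groups. Members under about 20 counts, such as Igfbp5 and Igfbp6, could show only large changes.

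With the replicate number as a block, 4 members were called for TCM against CCM and 1 for LA against vehicle. For the difference between effects 4 were called (Igfbp4 added), and for CCM against vehicle 1 (Pappa2, log2 FC 0.81, edgeR adjusted P = 0.0445). Over all genes that fit called 2367 for TCM against CCM, 356 for LA against vehicle, 1316 for the difference and 193 for CCM against vehicle. Same-numbered libraries deviated together only in part (r = 0.353 between vehicle and LA, 0.112 between vehicle and TCM, 0.106 between LA and TCM, and -0.242 to -0.0406 for pairs with CCM), and with 2 libraries a group this shows no pairing. With the CCM numbers crossed, a fit chosen after seeing the data, 1 member was called for CCM against vehicle and 457 genes in all, 4 members and 1938 genes for the difference between effects (Igfbp4 added), and 596 genes for LA against vehicle. With merged exons in place of the longest transcript, the mean RPKM of Igf1 with vehicle moved from 30.4 to 21.6 and that of Pappa2 from 4.08 to 3.78, by the same factor in every library of a gene.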
